A study of Mus musculus with 2 samples.

Results

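The genes described here are the annotated pseudogenes that were assigned at least 10 long reads. They were chosen by their measured reads, summed over 2 libraries, together with a gene type containing the word pseudogene in the GENCODE M21 annotation of the mouse genome mm10. The rule found 187 genes among 13525 annotated pseudogenes, of which 597 had at least 1 read, and among 15747 annotated genes with a read. Both libraries are full-length RNA sequencing libraries of gastrocnemius, the large calf muscle, from 14-day-old female B6CASTF1/J mice, the F1 hybrid of C57BL/6J and CAST/EiJ. They form 1 group with no treatment or genotype contrast and are labelled biological replicates 1 and 2, called R1 and R2 where counts are given. Replicate 1 is described as tissue of 3 females and replicate 2 as tissue of a female, with no count given, and the donor record is the same for both. Each started from 2 µg of RNA with spike-in transcripts. Reads on annotated genes other than spike-ins numbered 1248854 in replicate 1 and 1106450 in replicate 2, so that 1 read was worth 0.801 in R1 and 0.904 in R2 in CPM (reads per 1000000 gene reads). One long read is taken as 1 transcript molecule, and levels were therefore not divided by length.

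Pseudogenes are copies of genes that are not annotated as making the parent's protein. Processed pseudogenes arise when a messenger RNA is reverse transcribed and inserted back into the genome, so they carry no introns and resemble the spliced transcript. Unprocessed pseudogenes arise from duplicated DNA and can keep an exon structure, and stretches of mitochondrial DNA inserted into nuclear chromosomes are annotated in the same group. Genes that are abundantly transcribed in the germ line, such as those of ribosomal proteins and of glyceraldehyde-3-phosphate dehydrogenase (Gapdh), are known for leaving many processed copies.

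The tissue markers matched the label. The fast muscle genes Acta1, Ckm, Myh4, Mylpf, Tnnt3 and Actn3 summed to 184989 CPM in replicate 1 and 185845 CPM in replicate 2, the liver gene Alb and the neuronal gene Snap25 were at 0 reads, and of the heart genes Nppa and Myl7 were at 0 reads and Myh6 had 9 in R1 and 2 in R2. Within the fast list, Acta1 and Ckm were nearly equal, while Myh4 (23060 CPM in R1 and 11320 in R2) and Actn3 were higher in replicate 1. Mylpf (21320 CPM in R1 and 35780 in R2) and Tnnt3 were higher in replicate 2. Markers of other fibres and cells also differed between the libraries. The 3 slow muscle genes summed to 1723.9 CPM in R1 and 5643.8 in R2, with Tnnt1 and Tnnc1 higher in replicate 2 and Myh7, the slow myosin, at 915.2 CPM in R1 and 621.8 in R2. The 3 fibroblast genes summed to 7908.9 CPM in R1 and 3389.6 in R2. Of these, Col1a1 and Col3a1 were higher in replicate 1, and Dcn was at 329.9 CPM in R1 and 313.6 in R2. The 2 endothelial genes summed to 79.3 CPM in R1 and 27.1 in R2. Blood genes summed to 1410.1 CPM in R1 and 1255.3 in R2. The part of these differences in the library splits given below was not tested.

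Most copies were close to letter-perfect over the part that matched the parent. For 185 of the 187 genes a protein-coding or mitochondrial ribosomal RNA transcript matched at least 50% of the pseudogene, and these matches named 141 different parent genes. The median identity to the parent was 99.7%, against 90.5% for the 10824 annotated pseudogenes with a matched parent and no read. For 154 genes it was at least 99%, and 46 had no difference from the parent over their whole annotated length. Identity covers the matched part only. Rpl37rt, at 99.7% over 50.4% of its length, had 182 differing bases when aligned over its whole length.

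Letters of the Gapdh copies are shown because each of the most abundant ones can be told from Gapdh by very few bases or none. Gapdh is the glycolytic enzyme that oxidises glyceraldehyde 3-phosphate, and its gene lies on chr6:125161715-125166467. Gm12671, on chr4:91851668-91852669, and Gm10359, on chr5:105862701-105863702, had no difference from the Gapdh transcript over 1002 bases. Gm5559, on chr5:95861714-95862715, differed by T385A, Gm12033, on chr11:20335012-20336013, by T504C, and Gm13394, on chr2:28933610-28934609, by A346C. In this notation the base of the parent comes first, then the position counted from 1 at the 5′ end of the pseudogene transcript, then the base of the pseudogene. The windows around each change follow, with the changed base in capitals:
Gm5559: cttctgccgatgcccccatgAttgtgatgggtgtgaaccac
Gapdh at the same place: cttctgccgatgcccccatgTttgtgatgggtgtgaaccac
Gm12033: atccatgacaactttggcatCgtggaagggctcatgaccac
Gapdh at the same place: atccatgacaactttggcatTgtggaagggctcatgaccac
Gm13394: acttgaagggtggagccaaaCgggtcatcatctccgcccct
Gapdh at the same place: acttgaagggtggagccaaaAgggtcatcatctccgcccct
Reads of identical copies cannot be told apart by sequence, and reads of near-identical copies can be told apart only at the few bases that differ. The counts of nearly all genes described here are therefore uncertain as to which copy made the RNA, and they are reported as the reads assigned by the authors' counting. All identities and differing bases were taken from the mm10 annotation. Whether both parental strains of the hybrid carry these bases was not tested.

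Annotated pseudogenes reached 10 reads more often when they were close to an abundant parent. Among pseudogenes whose parent had at least 100 reads, 2 of 2416 with under 90% identity reached 10 reads, and 0 of 1206 between 90 and 95% did, which allows a share of up to 0.318% (Wilson 95% interval). The share was 1.09% (8 of 737) between 95 and 98%, 4.33% (11 of 254) between 98 and 99%, and 19.2% (25 of 130) between 99 and 99.5%. It was 54.2% (58 of 107, interval 44.8 to 63.3%) from 99.5% to just under 100%, and 55.6% (45 of 81, interval 44.7 to 65.9%) at 100%. With parents that had a read but fewer than 100, 8.93% of the copies at 100% identity (5 of 56) reached 10 reads. Parents were grouped by the reads listed at the parent gene alone. These intervals treat pseudogenes as independent, which copies of the same parent are not, and identity itself is a measure that the choice of members did not use.

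**Figure D1:**
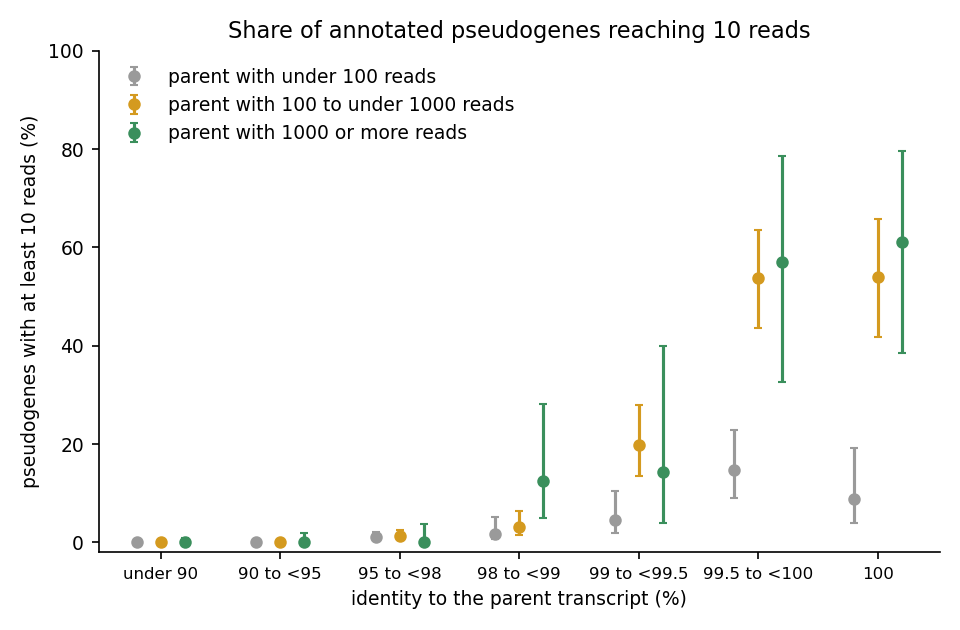
Share of annotated pseudogenes with at least 10 summed reads (%, vertical axis) against identity to the parent transcript (%, horizontal axis), with parents split by their summed reads and bars giving Wilson 95% intervals. Shares stay at or under 1.25% below 98% identity and exceed 50% above 99.5% for parents with at least 100 reads.

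Together the 187 genes held 14699 reads in replicate 1 and 18924 reads in replicate 2. Their share of gene reads was 1.18% in replicate 1, with a Wilson 95% interval from 1.16 to 1.20%. For replicate 2 it was 1.71%, with an interval from 1.69 to 1.73%. Averaged over the libraries the share was 1.44 ± 0.377% (SD, n = 2). The intervals do not overlap, and like all intervals here they cover counting error only. Reads were concentrated: the 10 genes with the highest mean level held 54.2% of the reads of all 187 genes in R1 and 38.8% in R2, 60 genes had over 100 summed reads, 40 had fewer than 20, and the median was 53. Gm12671 stood highest with 3604 summed reads. Another 410 pseudogenes had 1 to 9 reads and summed to 1043. At the threshold, the 8 genes just inside with 10 reads were Dnajc19-ps, Gm10171, Gm11223, Gm12537, Gm13680, Gm14494, Gm3608 and Gm9392. The 10 just outside with 9 reads were Amd-ps3, BC023105, Gm10481, Gm3362, Gm4118, Gm5940, Gm9855, Hyi, Ppp4r1l-ps and Prkcz2, of which Hyi had 9 reads in replicate 1 and 0 in replicate 2.

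**Figure D2:**
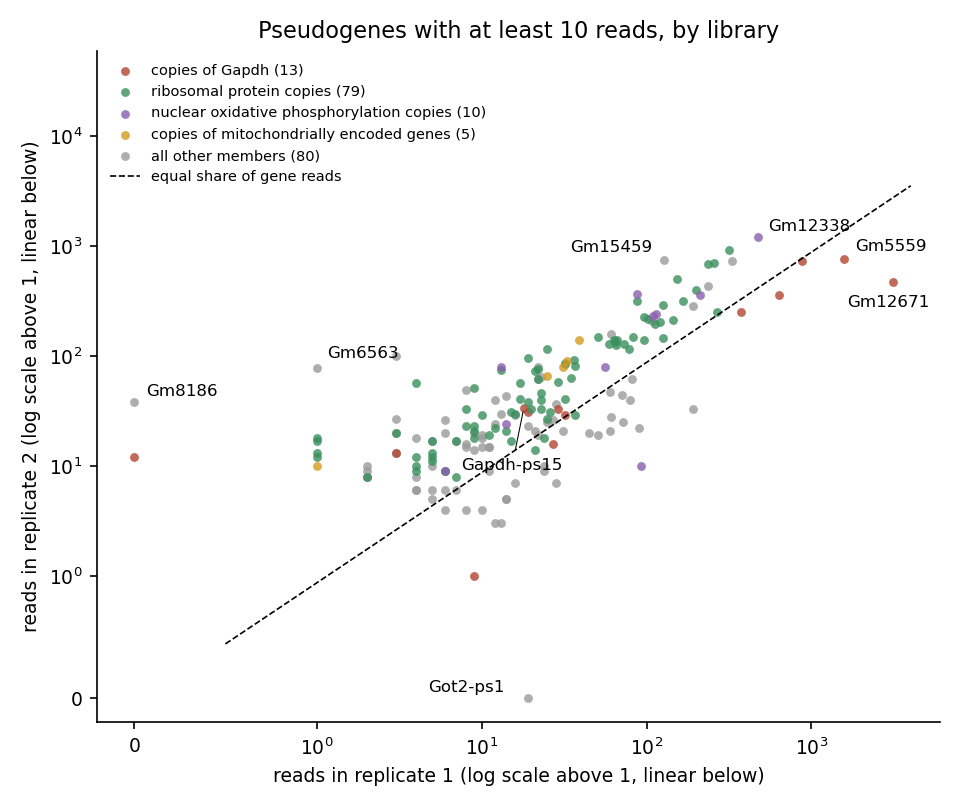
Reads in replicate 1 (horizontal axis) and replicate 2 (vertical axis) of each of the 187 pseudogenes, on axes that are logarithmic above 1 and linear below, with colours for the gene copied and the dashed line marking an equal share of gene reads in both libraries. Most points lie above the line, the large copies of Gapdh lie on or below it, and Gm8186, Gm2546 and Got2-ps1 have 0 reads in 1 library.

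By gene type, 154 of the 187 were processed pseudogenes, out of 9941 annotated (1.55%), and 19 were transcribed processed pseudogenes, out of 296 (6.42%). A further 6 were unprocessed, out of 2642 (0.227%), 6 were transcribed unprocessed, out of 253 (2.37%), and 2 carried the bare type pseudogene, out of 61 (3.28%). The 154 processed pseudogenes held 87.6% of the reads. The genes lay on 21 chromosomes, with 18 on chromosome 2, 17 each on chromosomes 1, 5 and X, and 1 on chromosome Y. No other annotated gene overlapped 117 of them. An exon of another gene on the same strand overlapped 6, namely Rpl19-ps11 (Gm27288), Gm10774 (Usp50), Gm4149 (Mir682), Gm7666 (Fyb), Gm15421 (Orc5) and Gm6740 (a second gene of that symbol), and 46 overlapped a gene on the other strand, so their reads may be split between the overlapping genes.

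The symbol named a parent for 59 genes. For 56 of these the named gene was also the best sequence match, and the other 3 used a family or older name: Eif4a-ps4 matched Eif4a1, Hsp25-ps1 matched Hspb1 and Ube2d-ps matched Ube2d3. The remaining symbols are numbers or clone names, and their parents are known here by sequence only. For 7 genes several parents matched equally well, and the one with more reads was taken.

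Of all parents, Gapdh had the most reads on its copies. The 13 copies of Gapdh held 6735 reads in replicate 1 and 2762 reads in replicate 2, which is 45.8% of the reads of the 187 genes in replicate 1 and 14.6% in replicate 2. Gapdh itself was listed with 69 reads in replicate 1 and 74 in replicate 2, or 55.3 CPM in R1 and 66.9 in R2. The copies therefore held 99.0% of the reads of Gapdh and its copies in replicate 1 and 97.4% in replicate 2. By its own reads Gapdh ranked 1738 among 15747 genes, and with its copies added it would rank 22. Other glycolytic enzymes were listed at their own genes, such as Aldoa (aldolase A) with 13853 reads in R1 and 8092 in R2 and Tpi1 (triosephosphate isomerase) with 3536 reads in R1 and 2590 in R2.

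Few of the reads on Gapdh were on its annotated coding models. Gapdh-201 and Gapdh-202, both annotated as protein coding, were listed with 0 reads in both libraries, which allows up to 2.40 CPM in replicate 1 and 2.71 CPM in replicate 2 (3 reads each). The coding model Gapdh-203 had 11 reads in R1 and 10 in R2 and the retained-intron model Gapdh-213 had 8 reads in R1 and 22 in R2. Another 50 of the 69 reads in replicate 1 and 39 of the 74 reads in replicate 2 were on models that are not annotated.

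Gm12671 had 3128 reads in replicate 1 and 476 in replicate 2, or 2505 CPM in R1 and 430.2 in R2. Gm10359, with the same 1002 annotated bases, had 32 reads in R1 and 29 in R2, or 25.6 CPM in R1 and 26.2 in R2. The same sequence at 2 places was thus listed 97.8 times higher at Gm12671 in replicate 1 and 16.4 times higher in replicate 2. The longer annotated sequence of Gm7336, with 1232 bases, also contains these 1002 bases. Gm12671 had 3.55 times the reads of Gm7336 in replicate 1 but 0.643 times in replicate 2. Gm5559 had 1581 reads in R1 and 764 in R2, Gm7336 had 882 in R1 and 740 in R2, Gm12033 had 632 in R1 and 362 in R2, and Gm13394 had 375 in R1 and 251 in R2. The other 7 copies, Gm13292, Gapdh-ps15, Gm14760, Gm2606, Gm4518, Gm2546 and Gm12537, had between 0 and 34 reads in a library. Of the 231 annotated pseudogenes that matched Gapdh, 209 had no read, and their median identity was 89.5%.

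By the test between libraries described below, Gm12671 was higher in replicate 1 (log2 ratio 2.26), and the 5 most abundant copies were all at a higher CPM in replicate 1, though on the TMM scale used for ratios Gm7336 was at -0.21. Without Gm12671 the copies held 3607 reads in replicate 1 and 2286 in replicate 2. Gapdh-ps15 had 18 reads in replicate 1 and 34 in replicate 2. It lies on chrY:38619783-38620784 although both libraries are labelled female, and it differs from Gapdh by 5 substitutions, of which the first, T63C, stands in capitals here:
Gapdh-ps15: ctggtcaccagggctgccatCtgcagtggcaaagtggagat
Gapdh at the same place: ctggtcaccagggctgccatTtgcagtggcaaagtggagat
Gm2546, a Gapdh copy on chromosome 7, carries the same T63C, so this base alone does not mark the chromosome Y copy. Chromosome Y had 2 other genes with a read, with 2 reads in replicate 1 and 0 in replicate 2. The Y-linked genes Uty, Ddx3y, Kdm5d and Eif2s3y, which are broadly transcribed in males, were listed with 0 reads in both libraries.

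**Figure D3:**
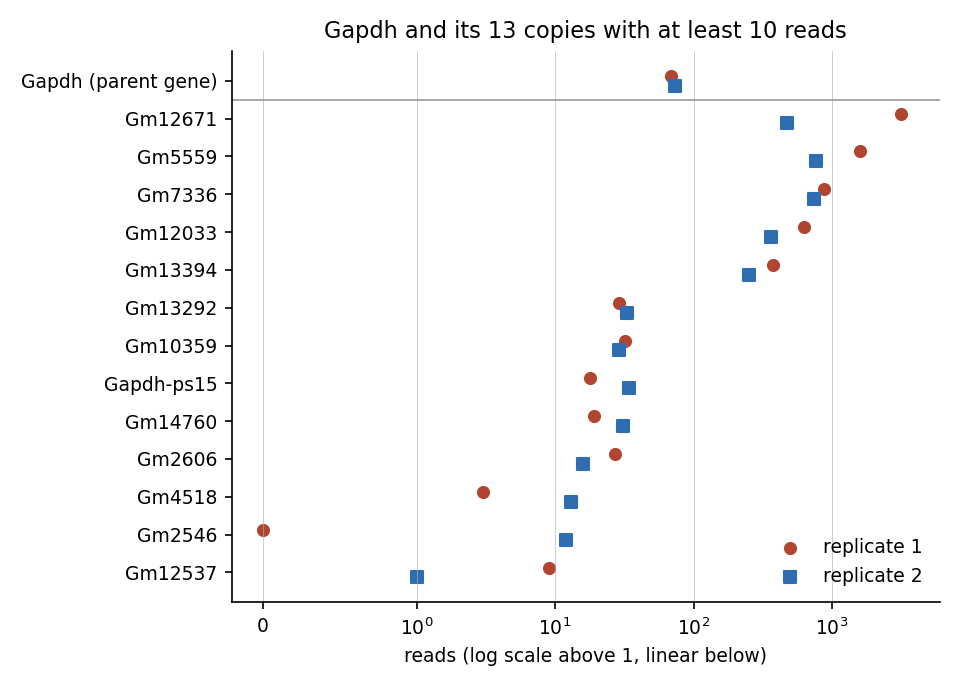
Reads of Gapdh and of its 13 copies with at least 10 summed reads, with replicate 1 as circles and replicate 2 as squares on an axis that is logarithmic above 1 and linear below. The 5 upper copies hold 251 to 3128 reads per library, above the 69 reads in R1 and 74 in R2 listed for Gapdh.

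Ribosomal protein copies were the largest family by number. The 79 copies of cytosolic ribosomal protein genes held 4010 reads in replicate 1 and 8884 in replicate 2, or 3211 CPM in R1 and 8029 in R2, which is 27.3% of the reads of the 187 genes in replicate 1 and 47.0% in replicate 2. In replicate 1 the 16 copies of glycolytic genes held more, with 7015 reads, against 2850 in replicate 2. Gm14303 had 315 reads in R1 and 924 in R2, beside 363 in R1 and 1019 in R2 for its parent Rps29, a gene of the small ribosomal subunit, so the copy took 46.5% of the pair in replicate 1 and 47.6% in replicate 2. Rpl37rt, a copy of Rpl37 of the large subunit, had 256 reads in R1 and 703 in R2, beside 187 in R1 and 540 in R2 for Rpl37, which it matches over 50.4% of its 682 bases. Gm15500, a copy of Rpl5, which binds the 5S ribosomal RNA, had 235 reads in R1 and 694 in R2, beside 321 in R1 and 1043 in R2 for Rpl5. Rps19-ps6 had 152 reads in R1 and 502 in R2, beside 172 in R1 and 482 in R2 for Rps19. In these pairs the split differed little between libraries, while the read counts of both partners were higher in replicate 2.

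Among the ribosomal protein copies whose symbol names the parent, Rps2-ps13 had 268 reads in R1 and 251 in R2, beside 230 in R1 and 161 in R2 for Rps2, and Rpl31-ps8 had 87 in R1 and 319 in R2, beside 60 in R1 and 221 in R2 for Rpl31. Rps2-ps13 was thus nearly equal in both libraries, at 220.7 ± 8.67 CPM (SD, n = 2). Rpl3-ps1 had 73 reads in R1 and 130 in R2, beside 198 in R1 and 262 in R2 for Rpl3, and Rpl19-ps11 had 63 in R1 and 140 in R2, beside 300 in R1 and 383 in R2 for Rpl19. Among the copies of other translation genes, Mrpl23-ps1, a copy of a mitochondrial ribosomal protein gene, had 61 reads in R1 and 158 in R2, beside 101 in R1 and 240 in R2 for Mrpl23, and Eif4a-ps4, a copy of a gene for an RNA helicase of translation initiation, had 71 in R1 and 44 in R2, beside 85 in R1 and 75 in R2 for Eif4a1.

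Some ribosomal protein parents held few of the reads. The 4 copies of Rpl17 had 91 reads in R1 and 188 in R2, beside 5 in R1 and 15 in R2 for Rpl17, and the 4 copies of Rpl21 had 313 in R1 and 621 in R2, beside 24 in R1 and 46 in R2 for Rpl21. The 6 copies of Rpl35a had 253 reads in R1 and 575 in R2, beside 27 in R1 and 97 in R2 for Rpl35a. In Rpl35a the largest copy, Gm10243 with 199 reads in R1 and 399 in R2, has the same annotated sequence as Rpl35a-ps2 (19 in R1 and 97 in R2), Rpl35a-ps3 (20 in R1 and 33 in R2) and Rpl35a-ps6 (9 in R1 and 21 in R2). Likewise Gm13370 with 125 reads in R1 and 292 in R2 has the sequence of Gm10240 (8 in R1 and 23 in R2), both copies of Rpl21. The copies Gm11518 and Rpl27-ps3, which have the Rpl27 sequence, were instead close to each other, with 78 reads in R1 and 117 in R2 for Gm11518 and 65 in R1 and 125 in R2 for Rpl27-ps3. Of the 5 sets of equal annotated sequence, those of Gapdh, Rpl35a and Rpl21 thus held a pair of copies over 10-fold apart in both libraries, although Gm10243 was 4.11 times Rpl35a-ps2 in replicate 2. The Rpl27 pair differed by at most 1.20-fold, and the Atp5g2 pair described below by 2.44-fold in replicate 1 and by a ratio of 0.968 in replicate 2.

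Across the 141 parents, 23 had over 50% of the reads of parent and copies on the copies, and 18 of them in both libraries. The median share of a single copy in its pair was 17.5% in replicate 1 and 20.3% in replicate 2, and 150 copies were below their parent in both libraries while 22 were above it in both. For the 46 copies with no difference from the parent, the share of the pair ranged from 1.53 to 96.2% with a median of 27.4%, and 38 of them were below the parent in both libraries. The identical copies held 41.9% of the reads of all 187 genes.

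**Figure D4:**
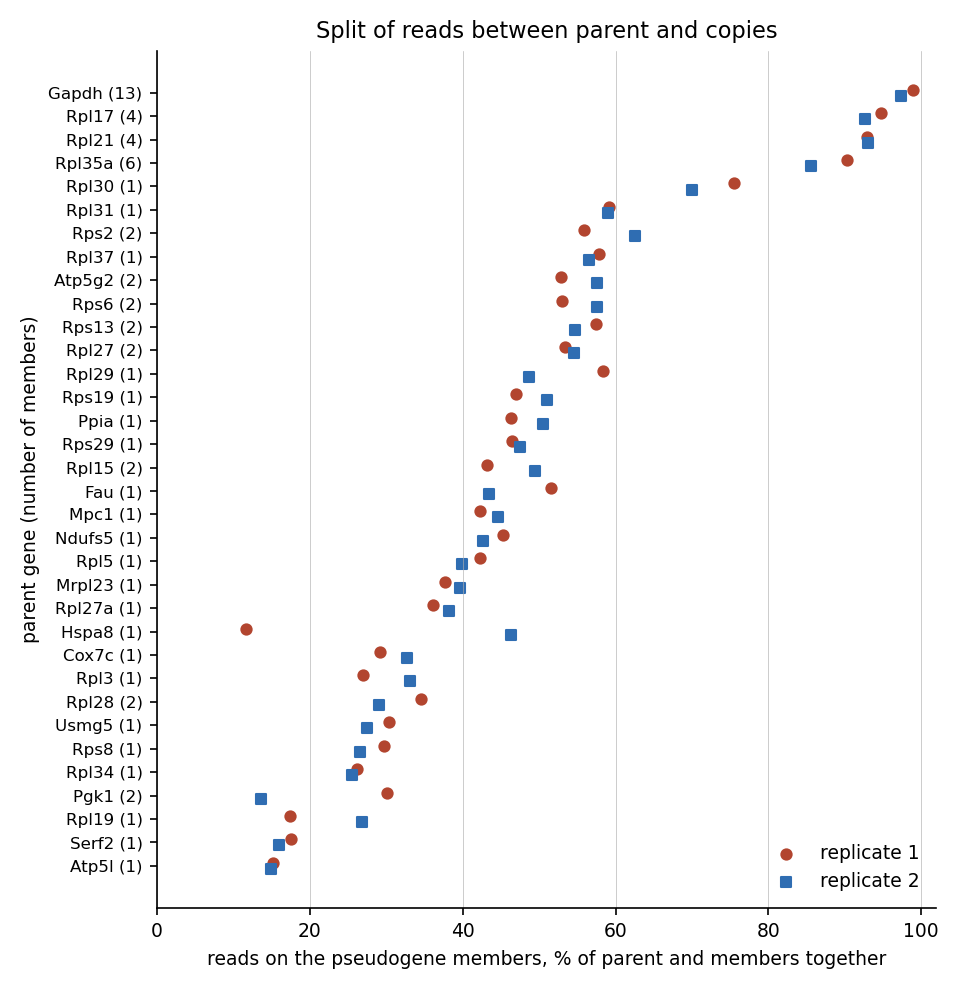
Reads on the copies as a percentage of the reads of the parent and its copies, for the 34 parents whose copies held at least 200 reads, with replicate 1 as circles and replicate 2 as squares. Gapdh, Rpl17, Rpl21 and Rpl35a lie above 85% in both libraries, and Hspa8 has the widest gap between libraries, with 11.6% in replicate 1 and 46.3% in replicate 2.

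Copies of nuclear genes of oxidative phosphorylation numbered 10 and held 1180 reads in R1 and 2611 in R2. Gm12338, a copy of Cox7c, a subunit of cytochrome c oxidase, had 475 reads in replicate 1 and 1208 in replicate 2, beside 1150 in R1 and 2482 in R2 for Cox7c. In replicate 2, however, 948 of the 1208 reads were on a model of 1 exon and 90 bases at chr11:75599647-75599736, which does not overlap the annotated pseudogene at chr11:75599763-75599954. On the annotated model it had 473 reads in R1 and 258 in R2. The 2611 reads of the 10 copies in replicate 2 include the 948 reads outside the annotated pseudogene. Gm10175 and Gm10231 share 1 annotated sequence and copy Atp5g2, a subunit of ATP synthase. Gm10175 had 212 reads in R1 and 357 in R2 and Gm10231 had 87 reads in R1 and 369 in R2, beside 266 in R1 and 535 in R2 for Atp5g2. Gm14539 and Mpc1-ps were grouped elsewhere and are not among these 10 copies or in their totals. Gm14539, a copy of the ATP synthase-associated Usmg5, had 331 reads in R1 and 726 in R2, beside 758 in R1 and 1921 in R2 for Usmg5. Mpc1-ps, a copy of a mitochondrial pyruvate carrier subunit, had 191 in R1 and 283 in R2, beside 261 in R1 and 352 in R2 for Mpc1.

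The chaperone and cyclophilin copies Gm15459, Gm10123 and Hsp25-ps1 differed from one another in their split. Gm15459, a copy of the heat shock cognate Hspa8, had 128 reads in replicate 1 and 742 in replicate 2, while Hspa8 had 977 in R1 and 861 in R2. Gm10123 had 237 reads in R1 and 435 in R2 and its parent Ppia, cyclophilin A, 274 in R1 and 427 in R2. Hsp25-ps1, a copy of the small heat shock protein gene Hspb1, had 90 reads in R1 and 22 in R2, beside 263 in R1 and 331 in R2 for Hspb1.

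Nuclear copies of mitochondrial genes lay together on chromosome 1. Gm28437, Gm10925, Gm28661 and Gm29216 lie within 3009 bases at chr1:24613189-24616197 on the minus strand. Gm28437 (copy of mt-Co3) had 31 reads in replicate 1 and 80 in replicate 2, beside 24 in R1 and 68 in R2 for mt-Co3. Gm10925 (mt-Atp6) had 39 reads in R1 and 141 in R2, beside 27 in R1 and 146 in R2 for mt-Atp6. Gm28661 (mt-Co2) had 25 in R1 and 66 in R2, beside 18 in R1 and 64 in R2 for mt-Co2, and Gm29216 (mt-Co1) had 33 in R1 and 91 in R2, beside 292 in R1 and 598 in R2 for mt-Co1, of which its 492 bases copy a part. The 3 copies with no difference from their parent thus held from 49.1 to 59.1% of the reads of their pair in each library. The start of Gm10925 is shown because it is the mitochondrial sequence base for base, read from the nuclear annotation:
Gm10925, first 60 bases: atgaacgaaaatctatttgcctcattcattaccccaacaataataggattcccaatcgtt
The fifth copy, Gm13340 on chr2:22588103-22589647, matched mt-Co1 at 97.6% and had 1 read in R1 and 10 in R2.

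Reads of the 187 genes were almost all on models of 1 exon. Multi-exon models held 376 of their 33623 reads (1.12%), against 91.3% of all gene reads. Of the 187 genes, 168 are annotated with 1 exon and 19 with more. How far this annotation sets the contrast with all genes, here and for Known models, was not tested. Known models, those that match an annotated transcript, held 98.9% of the reads of the 187 genes in replicate 1 and 93.9% in replicate 2, against 69.9% in R1 and 72.0% in R2 over all genes. Of the 964 reads on incomplete splice matches in replicate 2, 948 were on the single Gm12338 model described above. Models of the class Genomic, TALON's class for reads that follow no annotated splice structure, held 0.565% in R1 (Wilson 95% interval 0.456 to 0.699%) and 0.698% in R2 (0.589 to 0.827%), against 2.07% in R1 and 6.49% in R2 over all genes.

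Of the 187 genes, 11 had at least 50% of their reads on multi-exon models, which join separate blocks of the genome. Together they had 152 reads in replicate 1 and 153 in replicate 2, of which 143 in R1 and 127 in R2 were multi-exon. None of the 11, which had 10 to 62 summed reads each, passed the test between libraries described below. Most genes did not: of all genes tested, 8.87% passed as higher in replicate 1 and 11.4% as higher in replicate 2. Ube2d-ps, on chr11:5762129-5784710, is a relative of the ubiquitin-conjugating enzyme gene Ube2d3 and had 27 reads in replicate 1 and 26 in replicate 2, of which 26 in R1 and 25 in R2 were multi-exon. Its match to Ube2d3 was 74.9% identical, so that 60 bases already hold many differences, which are in capitals:
Ube2d-ps: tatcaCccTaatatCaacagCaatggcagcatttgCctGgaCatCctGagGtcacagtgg
Ube2d3 at the same place: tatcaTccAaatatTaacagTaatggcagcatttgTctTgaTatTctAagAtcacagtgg
The level of Ube2d-ps was 22.6 ± 1.33 CPM (SD, n = 2).

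The other 10 spliced pseudogenes had between 2 and 33 reads per library. 2810025M15Rik had 21 reads in R1 and 14 in R2, of which 19 in R1 and 13 in R2 were on its annotated model of 3 exons on chr1:157412352-157420236. 1810014B01Rik had 11 reads in R1 and 15 in R2, all multi-exon, and Gm19196, related to Taf1b, a subunit of the RNA polymerase I initiation complex, had 9 in R1 and 20 in R2, all multi-exon. The pair 2610005L07Rik (16 reads in R1 and 7 in R2) and Gm21811 (14 in R1 and 5 in R2) on chromosome 8 both matched the cadherin gene Cdh11, which itself had 3 reads in R1 and 4 in R2. Gm8424 (11 in R1 and 9 in R2) had no matched parent, as did the unspliced B330016D10Rik (12 in R1 and 24 in R2). 7530428D23Rik (5 in R1 and 10 in R2), Gm10033 (7 in R1 and 6 in R2) and Gm9392 (2 in R1 and 8 in R2) completed the set with Gm13292, a Gapdh copy with 29 reads in R1 and 33 in R2 of which 28 in R1 and 15 in R2 were multi-exon, the most abundant model reaching 10567 bases beyond the annotated copy. Ppp1ccb, a copy of the protein phosphatase gene Ppp1cc, and Gm8116, a copy of Carnmt1, also had multi-exon reads, 16 in R1 and 5 in R2 for Ppp1ccb and 11 in R1 and 6 in R2 for Gm8116, but mostly single-exon ones.

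More of the 187 genes took a larger share of reads in replicate 2 than in replicate 1. Each gene's reads were set against those of all other genes with Fisher's exact test (two-sided), with Benjamini-Hochberg adjustment over all 8973 annotated genes with at least 10 reads. A call also needed an absolute log2 ratio of at least 1 after scaling by TMM, a trimmed mean of ratios. Of the 187 genes, 8 (4.28%) were called higher in replicate 1, where 8.87% of all genes tested were, and 90 (48.1%) were called higher in replicate 2, where 11.4% of all genes were. The median log2 ratio of replicate 1 over replicate 2 was -1.39 for the 187 genes and 0.01 for all genes tested. The sum that chose the genes does not fix this split, but the test compares the reads of 2 libraries of 1 group and not conditions, and whether the spread is biological or technical cannot be told apart.

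The direction went with transcript length, and the sign of the median changed once length was taken into account. Among genes with annotated lengths of up to 250 bases the median log2 ratio was -1.91 for 10 of the pseudogenes and -2.82 for 44 other genes. Over 250 and up to 500 bases the median log2 ratio was -1.58 for 74 of the pseudogenes and -1.87 for 150 other genes, and 47 of the pseudogenes and 111 of the other genes were called higher in replicate 2. It was -1.29 for 66 pseudogenes and -1.29 for 858 other genes over 500 and up to 1000 bases, and 0.12 for 37 pseudogenes and 0.14 for 7734 other genes over 1000 bases. Similar medians did not mean similar shares of calls. Over 1000 bases, 6 of the 37 pseudogenes were called in R1 and 7 in R2, against 783 and 345 of the 7734 other genes. Over 500 and up to 1000 bases, 28 of the 66 pseudogenes and 441 of the 858 other genes were called in R2. Up to 250 bases it was 8 of 10 and 33 of 44. The other genes are binned by the mean length of their models. With the trend over length removed, 23 of the 187 pseudogenes were called higher in replicate 1, where 2.31% of all genes tested were. In replicate 2 it was 11 of the 187, where 4.25% of all genes tested were called. For the 154 processed pseudogenes the called shares were 14.3% in R1 and 5.19% in R2. The median log2 ratio of the 187 pseudogenes was then 0.31. The parents showed a similar split before that correction. Of 138 tested, 0 were called higher in replicate 1 and 81 in replicate 2, where 8.87% and 11.4% of all genes tested were.

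By copied gene, 0 of the 79 ribosomal protein copies were called higher in replicate 1 and 52 (65.8%) in replicate 2. Of all genes tested, 8.87% and 11.4% were called in those directions. Of the 53 parents of these copies, 0 were called in R1 and 46 in R2. With the length trend removed, 2 copies (2.53%) in R1 and 3 (3.80%) in R2 were called, near the 2.31 and 4.25% of all genes. All 5 mitochondrial copies were called higher in replicate 2, as were all 4 of their parents, and 1 copy, Gm13340, was still called with the trend removed. Of the 16 copies of glycolytic genes, 2 were called higher in replicate 1 and 3 in replicate 2, which became 7 in R1 and 1 in R2 with the trend removed. For oxidative phosphorylation the counts were 1 in R1 and 6 in R2 of 10, and 1 in R1 and 0 in R2 with the trend removed.

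Member by member, the ratio of the copy went broadly with that of its parent. Over the 181 pairs with both genes tested, Pearson's r of the log2 ratios was 0.56 and Spearman's rho was 0.58, given as a description because the genes share the 2 libraries, their depth and, within pairs, nearly their sequence. The ratios of 133 pairs lay within 1 of each other on the log2 scale, and 48 differed by more, 32 with the copy lower and 16 with the copy higher.

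**Figure D5:**
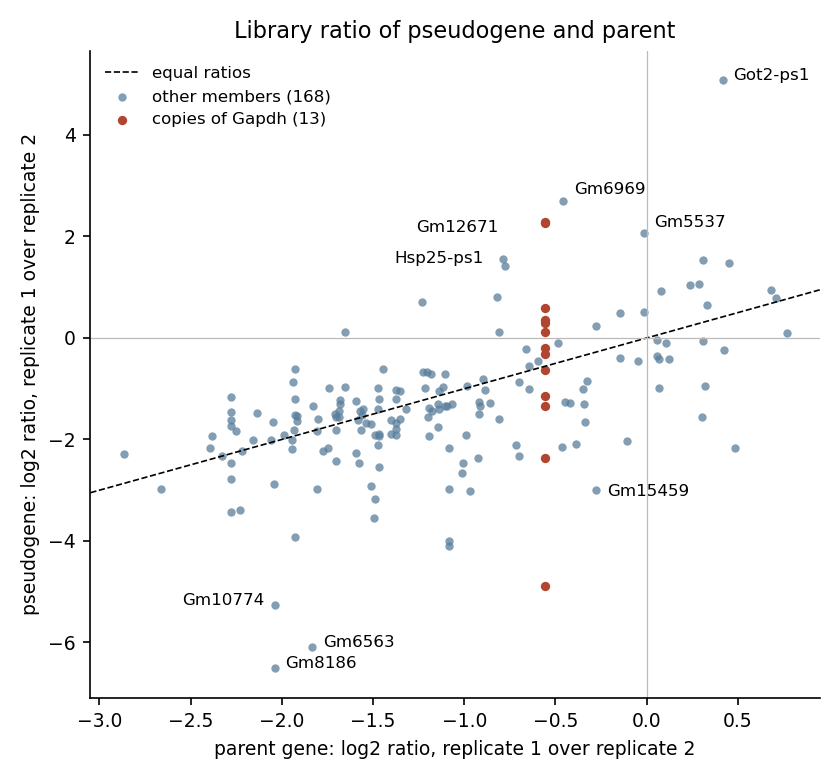
Log2 ratio of replicate 1 over replicate 2 for each pseudogene (vertical axis) and for its parent gene (horizontal axis), for 181 pairs, with Gapdh copies in red and the dashed line marking equal ratios. The 13 Gapdh copies share 1 parent value of -0.56 and, where both libraries had a read, spread from -2.37 (Gm4518, 16 reads) to 2.29 (Gm12537, 10 reads), with Gm12671 at 2.26. The positions of Gm2546, Gm8186 and Got2-ps1, with 0 reads in 1 library, are set by the prior count of 0.5.

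Several copies stood far from their parents, and their calls held with the length trend removed. Gm15459 was higher in replicate 2 (log2 ratio -2.99, adjusted p = 1.11e-120 by Fisher's exact test; -2.96 with the trend removed), while Hspa8 was at -0.28. Gm5537, which equals Pgk1 (phosphoglycerate kinase) over its length, was higher in replicate 1 with 191 reads in R1 and 33 in R2 (log2 ratio 2.06; 2.67 with the trend removed), while Pgk1 was at -0.02 with 628 reads in R1 and 462 in R2. Pgk1-rs7, the other Pgk1 copy, had 79 reads in R1 and 40 in R2. Hsp25-ps1 was higher in replicate 1 (log2 ratio 1.56), as was Gm6969, a copy of Cox7a2l, a factor of respiratory supercomplexes, with 93 reads in R1 and 10 in R2 (log2 ratio 2.71), while Hspb1 and Cox7a2l were at -0.79 and -0.46.

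A few copies were nearly confined to 1 library. Gm8186, which equals Snrpg (a core protein of the splicing snRNPs) over its length, had 0 reads in replicate 1 and 38 in replicate 2. Set against a floor of 3 reads per library it was at least 14.3-fold lower in replicate 1, while Snrpg itself had 28 reads in R1 and 85 in R2. Got2-ps1, a copy of mitochondrial aspartate aminotransferase, had 19 reads in replicate 1 and 0 in replicate 2, at least 5.61-fold higher in replicate 1, while Got2 had 336 in R1 and 183 in R2. Gm2546, a Gapdh copy, had 0 reads in R1 and 12 in R2, at least 4.51-fold lower in replicate 1.

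Single bases marked 2 further copies of this kind. Gm6563, a copy of Sarnp, a gene of mRNA export, had 1 read in R1 and 78 in R2, a ratio of CPM of 0.0114 (exact 95% counting interval 0.000284 to 0.0652). Gm10774, a copy of Polr2l, a subunit shared by the RNA polymerases, overlaps an exon of Usp50 on its strand and had 3 reads in R1 and 100 in R2, a ratio of 0.0266 (0.00539 to 0.0799). Their parents had 54 reads in R1 and 141 in R2 for Sarnp and 187 in R1 and 559 in R2 for Polr2l. Each copy differs from its parent by 1 substitution, G288A in Gm6563 and G82A in Gm10774, in capitals here:
Gm6563: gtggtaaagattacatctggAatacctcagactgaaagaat
Sarnp at the same place: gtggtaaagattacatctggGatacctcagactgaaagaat
Gm10774: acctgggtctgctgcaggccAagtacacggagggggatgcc
Polr2l at the same place: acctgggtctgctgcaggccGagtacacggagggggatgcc
Whether the animals behind the libraries carry different bases at these places was not tested.

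Among called genes with at least 20 reads, the others with the largest ratios toward replicate 2 were copies of several kinds of genes. Rps4x-ps had 4 reads in R1 and 57 in R2 (log2 ratio -4.11), Gm14567, a copy of Polr2k, 3 in R1 and 27 in R2 (-3.40), Gm10108, a copy of cytochrome c (Cycs), 13 in R1 and 80 in R2 (-3.03), and Gm8566, a copy of superoxide dismutase (Sod1), 8 in R1 and 49 in R2 (-2.99). Rps12-ps10 and Gm5526, a copy of Myl6, each had 3 reads in R1 and 20 in R2 (-2.97). Of these, Rps4x-ps was also called with the length trend removed. In the other direction, Gm8116 had 72 reads in R1 and 25 in R2 (1.05), Ppp1ccb 60 in R1 and 21 in R2 (1.04), and Gm7389, a copy of the tRNA exporter Xpot, 28 in R1 and 7 in R2 (1.49), of which Gm7389 lost its call with the trend removed.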

How the data were processed

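Per the labels, 2 long-read RNA libraries of gastrocnemius were sequenced and the deposited tables are on mm10. Per the annotation files, whose fields name TALON, the read counts are per transcript model. The counts are the authors' deposited raw counts, and the sources used here do not give the aligner, the versions or the use of strand. Models of annotated genes were summed per gene, and spike-ins were left out. Deposited tables held 1316937 reads in replicate 1 and 1204188 in replicate 2.

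Gene coordinates and transcript sequences came from GENCODE M21. Parents were found with BLAST 2.17.0 (word size 16, plus strand, at least 50% of the pseudogene covered, overlapping genes excluded), and differences were counted with edlib alignments. CPM used annotated gene reads. Library ratios used TMM factors of edgeR 4.0.16 with a prior count of 0.5. No spread between libraries of different conditions exists, so Fisher's exact test took the place of a count model. DESeq2 1.42.0 size factors, totals, other minima and a length trend (lowess span 0.3, fitted on genes with at least 50 reads) were alternatives. With the length trend removed, an exact binomial test replaced Fisher's test, its expected share set by the trend and the TMM-scaled totals. Calls with and without the trend thus differ in the test and its scaling as well. Known models carry their annotated length, not the read's. On simulated libraries of 9001 genes, 179 of 200 genes changed 4-fold were called, with 3 false calls. The simulated libraries held counting error only, with no other variation between libraries and no length trend. The 3 false calls therefore do not measure the error rate in the real libraries. Intervals are Wilson intervals at 95% unless named otherwise. Genes named are the highest by mean CPM, those whose symbol names a parent, the leading ones of each gene type, the largest called ratios and the most multi-exon reads. The spliced set, the sets of equal sequence and the chromosome Y genes were chosen after their values were seen. Some items are not reported here. The members and lists were chosen with earlier results of these data known.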

Additional observations from a re-analysis of the deposited data

How the results depend on the processing

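The number of pseudogenes was 263 with a minimum of 5 reads, 147 with 20, 183 without Genomic models and 178 with Known models only. Their mean share of gene reads ran from 1.18 to 1.71% over the single libraries, was 1.95% with Known models only and, in an alternative chosen after seeing the data, 1.05% without the copies of Gapdh. The share of their reads in Genomic models ran from 0.565 to 0.698%. Calls higher in replicate 1 and replicate 2 numbered 23 and 11 with the length trend removed, against 8 and 90 without it. Under the other 6 settings they stayed between 7 and 9 and between 83 and 96. The pseudogenes tested numbered 183 without Genomic models, 147 with a minimum of 20 reads and 187 otherwise. Calls over all genes, 796 in R1 and 1020 in R2 of 8973 at the main setting, turned toward replicate 1 under some settings. They were 1119 in R1 and 808 in R2 of 8973 with totals only, and 991 and 917 of 8355 without Genomic models. Under the others they stayed toward replicate 2. Scaled by totals only, the median log2 ratio was -1.11, and after length correction it was 0.31, of opposite sign. For Gm12338 the log2 ratio was -1.80 over all models and 0.41, of opposite sign, with Known models only, also chosen after seeing the data. TMM shifted all log2 ratios by -0.28 from totals and DESeq2 by -0.22. No paired analysis was possible because both libraries belong to 1 group. With 1 read worth 0.801 and 0.904 CPM, genes near 10 reads have wide counting error, and reads of identical copies cannot be assigned by sequence.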
